A study of Mus musculus with 2 samples.

Results

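MHC class I and class II antigen presentation was followed through 10 genes of the mouse liver: Cd74, H2-Aa, H2-Ab1, H2-Eb1, H2-DMa, H2-K1, H2-D1, B2m, Tap1 and Ciita. They were taken by symbol from the 31053 features of the count matrices, and all 10 were found. Single cells came from livers of C57BL/6 mice, in a single library for chow-fed animals and a single library for animals on a NASH diet, which is high in fructose, fat and cholesterol and models non-alcoholic steatohepatitis. Both diets lasted 6.5 weeks, and the labels give no other treatment or genetic change in either group. Livers were digested with collagenase, and Percoll gradients collected the non-parenchymal cells and hepatocytes of several densities. The libraries were 10x Genomics 3' libraries, in which a unique molecular identifier (UMI) marks every RNA molecule that was captured. The labels do not say how many animals were pooled for a library, nor their sex or age.

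MHC class I molecules sit on nearly all nucleated cells and show peptides from inside the cell to CD8 T cells. H2-K1 and H2-D1 encode their heavy chains, B2m the light chain beta-2-microglobulin, and Tap1 a subunit of the transporter that brings peptides into the endoplasmic reticulum. MHC class II molecules sit mainly on professional antigen-presenting cells and show peptides from engulfed material to CD4 T cells. H2-Aa and H2-Ab1 encode the alpha and beta chain of the I-A molecule and H2-Eb1 the beta chain of I-E, which mice of the C57BL/6 background do not show at the cell surface for lack of a working alpha chain. Cd74, the invariant chain, fills the groove until H2-DMa and its partner exchange it for peptide, and Ciita is the coactivator that switches class II genes on. In the liver, class II is known from Kupffer cells, dendritic cells and B cells, and hepatocytes normally carry class I.

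Most members lie together in the MHC region of chromosome 17. By the GENCODE M21 annotation of GRCm38, the build called mm10 in the submitters' processing notes, H2-K1 (ENSMUSG00000061232) spans chr17:33996017-34000347 and H2-D1 (ENSMUSG00000073411) chr17:35262730-35267499. Between them lie H2-DMa (ENSMUSG00000037649) at chr17:34119541-34139101, Tap1 (ENSMUSG00000037321) at chr17:34187553-34197225, H2-Ab1 (ENSMUSG00000073421) at chr17:34257689-34269419, H2-Aa (ENSMUSG00000036594) at chr17:34282744-34287823 and H2-Eb1 (ENSMUSG00000060586) at chr17:34305867-34316674. B2m (ENSMUSG00000060802) lies apart at chr2:122147686-122153083 and Ciita (ENSMUSG00000022504) at chr16:10480059-10528418.

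The sequence just upstream of 5 members is shown because the class I and class II genes are known to be switched on through short motifs there. Of the 10 members, 7 had an entry in the RefSeq promoter set used (build GRCm38.p6). Cd74, H2-Ab1 and Ciita had none, so their upstream sequence was not searched for any motif. In the 250 bases before the start, 4 motifs were searched on both strands: CTGATTGG (the Y box of class II promoters, bound by NF-Y), TGACGTCA (the cyclic AMP response element, which the X2 box resembles), GGGATTCCC (the core of a kappa B site) and GAAANNGAA (the core of an interferon response element). Capitals mark the matches, which did not overlap one another in the stretches printed. The stretch of H2-Aa is chr17:34287824-34287973 on the minus strand, that of H2-Eb1 chr17:34305794-34305823 on the plus strand, that of H2-K1 chr17:34000348-34000497 on the minus strand, that of H2-D1 chr17:35262913-35262942 on the plus strand, within an exon of another H2-D1 transcript, and that of B2m chr2:122147537-122147685 on the plus strand. The other 4 stretches touch no annotated exon.
H2-Aa: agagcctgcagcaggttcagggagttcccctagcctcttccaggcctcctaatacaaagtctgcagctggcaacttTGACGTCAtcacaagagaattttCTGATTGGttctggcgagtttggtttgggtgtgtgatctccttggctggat
H2-Eb1: ctcctttgatgCTGATTGGctcccagcact
H2-K1: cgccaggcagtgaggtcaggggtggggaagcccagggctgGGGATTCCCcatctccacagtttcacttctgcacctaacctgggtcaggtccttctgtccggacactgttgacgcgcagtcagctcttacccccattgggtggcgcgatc
H2-D1: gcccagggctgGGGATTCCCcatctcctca
B2m: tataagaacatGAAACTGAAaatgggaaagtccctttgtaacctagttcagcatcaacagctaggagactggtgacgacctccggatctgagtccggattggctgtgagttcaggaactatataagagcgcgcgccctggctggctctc
The kappa B letters were held by H2-K1 and H2-D1 and by 0.301% of the 32851 promoters in the set (99 promoters). The Y box letters were held by the class II genes H2-Aa and H2-Eb1, by the class I genes H2-D1 and Tap1 and by 3.83% of promoters. The interferon response element stood in B2m and in 7.13% of promoters, and the cyclic AMP response element in H2-Aa and in 1.55%. A match describes these letters and is not a measured binding site.

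Cells were sorted into classes by marker genes that include none of the 10 members. Barcodes needed 200 genes, 500 UMIs and a mitochondrial share of no more than 30%, which 4326 of 7359 chow and 2369 of 5881 NASH diet barcodes met. These held 1991 and 1069 hepatocytes (chow first, here and below), 51 and 45 endothelial cells, 60 and 39 Kupffer cells and 23 and 52 other immune cells. Median UMIs per cell were 25856 and 20504, 4021 and 5175, 4423 and 1307, and 3092 and 4727.5 in these classes, of 71635757 and 39440182 UMIs in the libraries. All 13 Kupffer and all 16 endothelial markers were found in their class in both libraries, which gating on these same lists favours. Kupffer cells also held markers of monocytes and recruited macrophages, at 1447 and 760 per 1000000 UMIs. Of those 10 markers, 3 on chow and 1 on the NASH diet had 0 UMIs. The Kupffer gate did not exclude cells with such markers. Barcodes with few UMIs that passed the gate of no non-hepatocyte class, 1944 and 906 of them, served as a rough measure of free RNA. Shallow cells may be among them, and these barcodes still held Kupffer markers, at 83.0 and 38.9 CPM (UMIs per 1000000 UMIs). Between the libraries, 69 barcode sequences were shared.

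Levels are UMIs of a gene per 1000000 UMIs of the same cells (CPM), and differences are log2 ratios of NASH diet over chow. Each diet had 1 library, so no difference between diets could be tested or set against a spread between mice. The 95% intervals are exact Poisson, binomial or Clopper-Pearson intervals and cover counting error only. For a cell class, a smaller number of RNA-rich cells and less RNA per cell cannot be told apart in such summed values. A ratio was counted as a change of size when it reached 1 on the log2 scale in either direction.

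**Figure D1:**
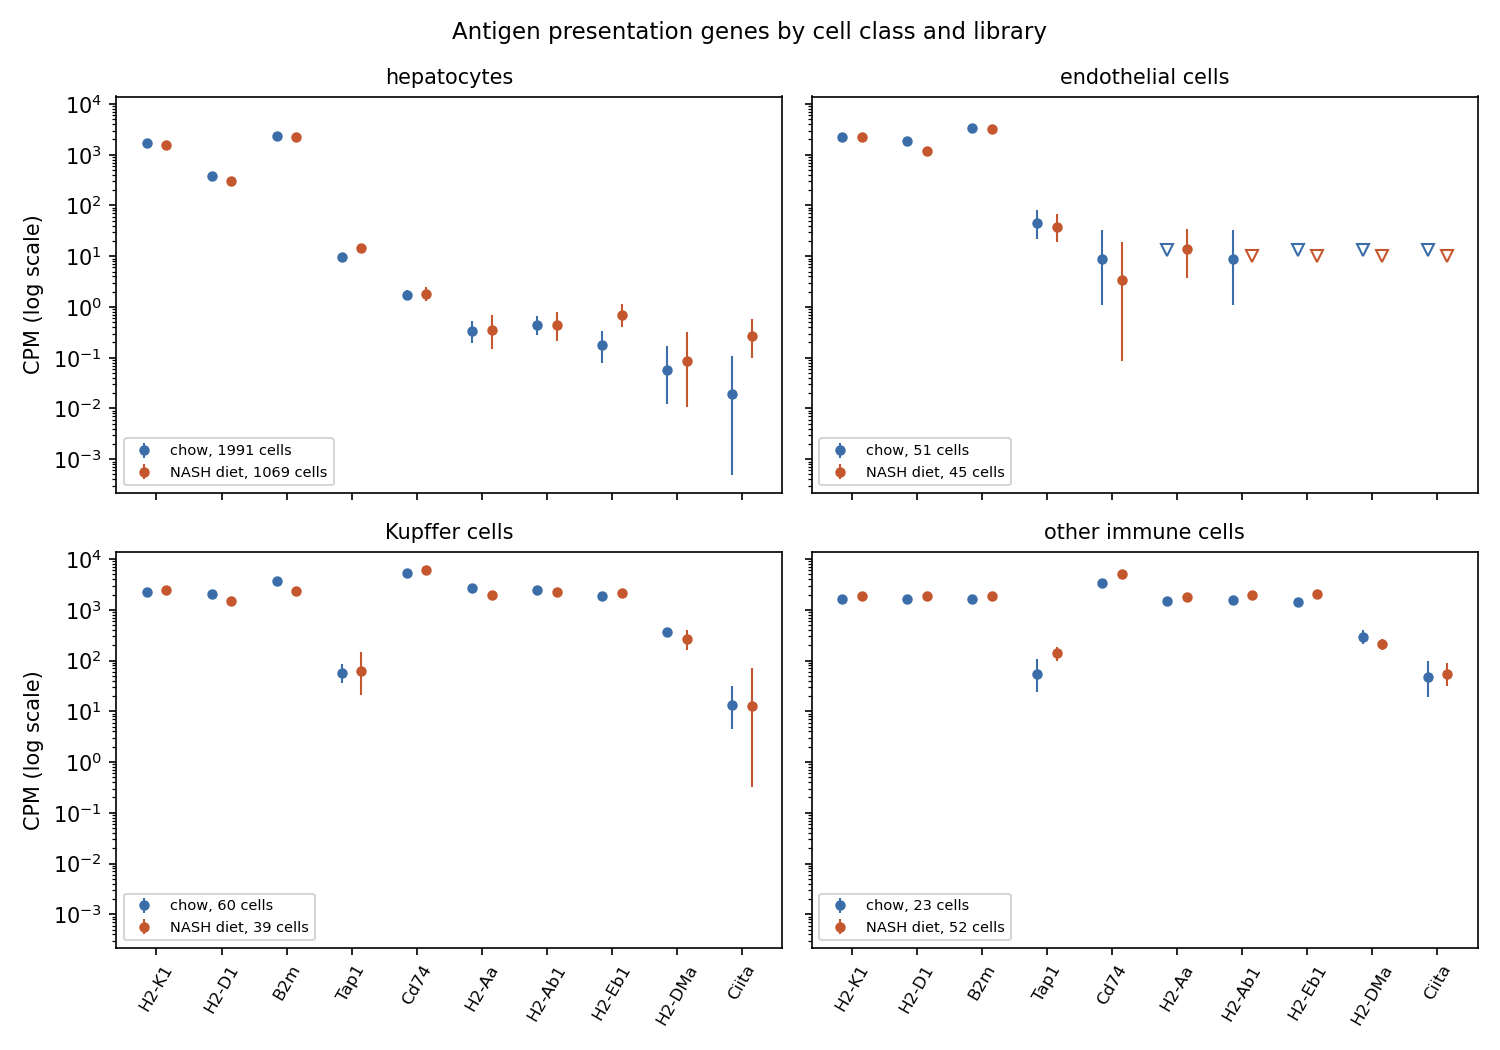
Summed level of each gene in CPM (log scale) in the 4 cell classes, chow in blue and NASH diet in orange, with exact 95% Poisson intervals; open triangles stand at the level of 3 UMIs for genes with 0 UMIs. H2-K1, H2-D1 and B2m were high in every class, and Cd74, H2-Aa, H2-Ab1, H2-Eb1 and H2-DMa were high in Kupffer and other immune cells and near the bottom in hepatocytes and endothelial cells.

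The class I genes were read in every class. H2-D1 was the class I gene whose interval lay below 0 in hepatocytes, endothelial cells and Kupffer cells alike, while B2m was lowest in Kupffer cells and Tap1 was higher on the NASH diet in hepatocytes and other immune cells. H2-D1 stood at 387 CPM in chow hepatocytes and 298 in NASH diet hepatocytes, a log2 ratio of -0.38 (95% interval -0.42 to -0.34). In endothelial cells it stood at 1880 and 1179 CPM, a log2 ratio of -0.67 (-0.88 to -0.46). In Kupffer cells it stood at 2031 and 1470 CPM, a log2 ratio of -0.47 (-0.76 to -0.18). In other immune cells H2-D1 did not show this, at 1658 and 1894 CPM with a log2 ratio of 0.19 (-0.03 to 0.42). Under every alternative tried, H2-D1 stayed below 0 in hepatocytes (-0.55 to -0.30), endothelial cells (-0.85 to -0.39) and Kupffer cells (-0.83 to -0.23).

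H2-K1, the other heavy chain, was closer to even. It stood at 1716 and 1578 CPM in hepatocytes, with a log2 ratio of -0.12 (-0.14 to -0.10). In endothelial cells it stood at 2246 and 2198 CPM, with a log2 ratio of -0.03 (-0.20 to 0.14). In Kupffer cells it stood at 2218 and 2433 CPM, with a log2 ratio of 0.13 (-0.10 to 0.36), and in other immune cells at 1651 and 1904 CPM, with a log2 ratio of 0.21 (-0.01 to 0.43). The intervals of the last 3 classes held 0. With no mitochondrial limit the Kupffer value of H2-K1 was -0.40.

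The heavy chains therefore did not keep one proportion. Chow hepatocytes held 4.43 H2-K1 UMIs per H2-D1 UMI (4.36 to 4.50) and NASH diet hepatocytes 5.29 (5.15 to 5.43). Endothelial cells held 1.2 and 1.86, Kupffer cells 1.09 and 1.66, and other immune cells 0.996 and 1.01. These are UMIs per UMI from 3' tags of both genes, so the comparison is between cells and not of one gene's level with the other's. The proportion was higher on the NASH diet by 0.26 (0.21 to 0.30) on the log2 scale in hepatocytes, 0.64 (0.37 to 0.91) in endothelial cells and 0.60 (0.23 to 0.98) in Kupffer cells, and the difference was 0.01 (-0.30 to 0.33) in other immune cells. In alternatives chosen after seeing the data it stayed above 0 in the first 3 classes, at 0.18 to 0.30, 0.46 to 0.74 and 0.41 to 0.64.

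Low-UMI barcodes held 2.29 H2-K1 UMIs per H2-D1 UMI on chow and 6.40 on the NASH diet. The 12 hepatocyte markers made up 0.426% and 1.06% of the UMIs of endothelial cells and 0.426% and 0.821% of those of Kupffer cells, against 5.62% and 6.47% in hepatocytes. The median per cell went from 0.228% to 1.17% in Kupffer cells and from 0.312% to 0.269% in endothelial cells. The proportions of H2-K1 to H2-D1 come from summed UMIs and not from medians per cell. The part of hepatocyte RNA in the endothelial and Kupffer values was not tested. Within the last 600 bases of its longest coding transcript, H2-K1 shared 0 of 541 windows of 60 bases with another gene. Other 3' ends of the 2 heavy chain genes, where tags may also fall, were not searched. H2-D1 shared 22 of 541 (4.07%) with other genes, and H2-K1 was not among those that shared the most.

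**Figure D2:**
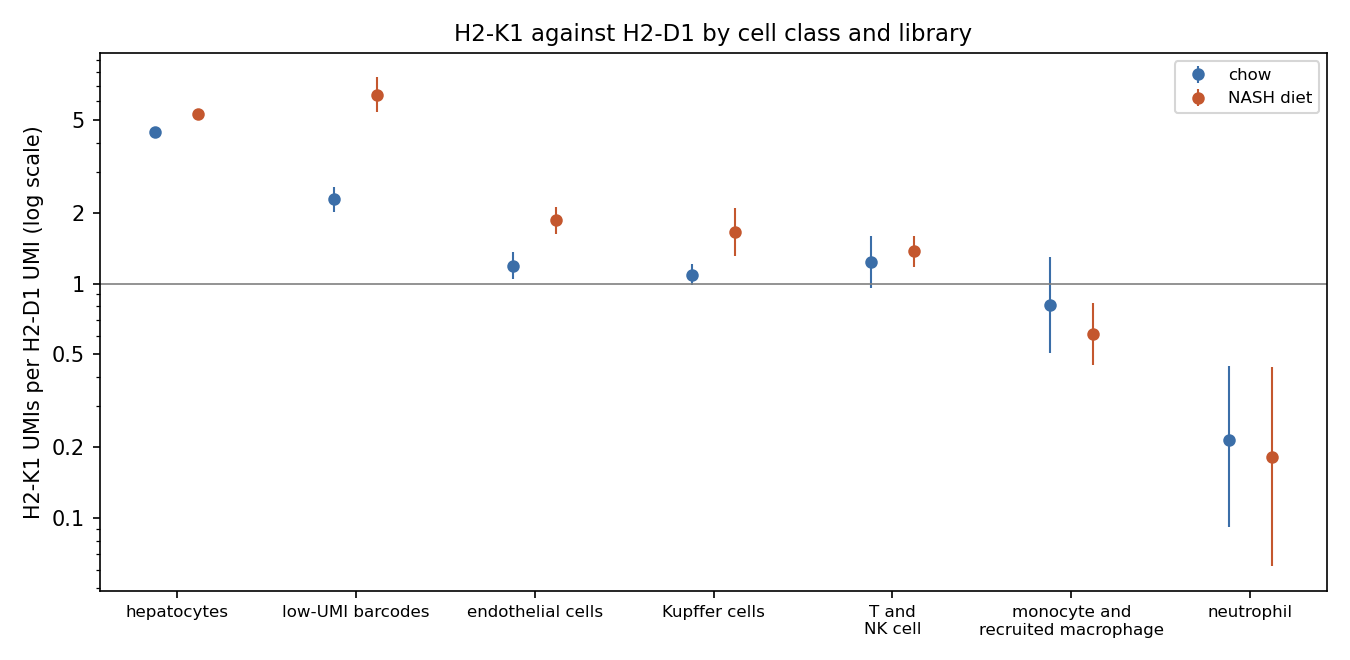
H2-K1 UMIs per H2-D1 UMI (log scale) in each class or immune lineage, chow in blue and NASH diet in orange, with exact 95% intervals; the grey line marks 1. Hepatocytes sit at 4.43 and 5.29, endothelial and Kupffer cells between 1.09 and 1.86, and neutrophils at 0.214 and 0.182.

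Among the classes and lineages, neutrophils held the lowest proportion of H2-K1 to H2-D1 in both libraries. The 8 chow neutrophils held 9 H2-K1 and 42 H2-D1 UMIs, a proportion of 0.214 (0.092 to 0.447), and the 3 NASH diet neutrophils 6 and 33 UMIs, a proportion of 0.182 (0.062 to 0.439). Both were below T and NK cells, at 1.24 (0.959 to 1.60) in 7 chow cells and 1.37 (1.18 to 1.60) in 20 NASH diet cells. The neutrophil intervals did not overlap those of T and NK cells in either library.

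B2m, whose protein partners every class I heavy chain, was near even in hepatocytes and endothelial cells and lower in Kupffer cells on the NASH diet. It stood at 2344 and 2192 CPM in hepatocytes, a log2 ratio of -0.10 (-0.11 to -0.08), and at 3432 and 3189 CPM in endothelial cells, a log2 ratio of -0.11 (-0.25 to 0.03). In Kupffer cells it stood at 3741 and 2306 CPM, a log2 ratio of -0.70 (-0.93 to -0.47). This was the lowest ratio of the 9 members with at least 10 UMIs in Kupffer cells. Leaving out the mitochondrial limit, which raised the Kupffer cells from 60 and 39 to 71 and 157, took it to -1.2, and counting per 1000000 non-mitochondrial UMIs without that limit, an alternative chosen after seeing the data, to -0.71. In other immune cells B2m stood at 1651 and 1849 CPM, a log2 ratio of 0.16 (-0.06 to 0.39).

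Tap1, the peptide transporter subunit, was higher on the NASH diet in hepatocytes, where both heavy chains were lower. It had 500 UMIs on chow and 332 on the NASH diet, 9.77 and 14.6 CPM, a log2 ratio of 0.58 (0.38 to 0.78). The alternatives gave 0.41 to 0.64. Hepatocytes of matched depth showed the same order: at 5000 to 15000 UMIs per cell Tap1 stood at 4.92 CPM on chow and 10.1 on the NASH diet, at 15000 to 25000 UMIs at 10.4 and 14.1, and above 25000 UMIs at 9.98 and 16.2. H2-D1 was the lower on the NASH diet in these same 3 ranges, at 350.1 and 253 CPM, 389 and 301 CPM, and 390.0 and 307 CPM. Other immune cells held 8 and 43 Tap1 UMIs, 55.3 and 138 CPM, a log2 ratio of 1.32 (0.22 to 2.62), of which T and NK cells gave 5 and 23 UMIs. Without the mitochondrial limit that ratio was 0.89 (-0.16 to 2.11), and as a mean over cells it was 3.24. In endothelial cells (10 and 11 UMIs) and Kupffer cells (21 and 5 UMIs) the intervals of Tap1 held 0.

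Summed over H2-K1, H2-D1, B2m and Tap1, class I RNA stood at 4457 and 4083 CPM in hepatocytes, with every hepatocyte of both libraries holding at least 1 UMI. It stood at 7603 and 6603 CPM in endothelial cells, 8046 and 6273 CPM in Kupffer cells and 5015 and 5785 CPM in other immune cells. Hepatocytes thus held the lowest sum in both libraries, and Kupffer cells held 1.81 times (1.74 to 1.87) the chow hepatocyte sum and 1.54 times (1.40 to 1.68) that of the NASH diet. Endothelial and Kupffer cells stood in a different order in the 2 libraries, and their intervals overlapped in both. In chow Kupffer cells H2-D1 was 5.24 times (4.87 to 5.64) its hepatocyte level, against 1.29 times (1.21 to 1.38) for H2-K1 and 1.60 times (1.51 to 1.68) for B2m.

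Class II RNA separated the classes far more sharply and was nearly as high in Kupffer cells of either diet. Summed over Cd74, H2-Aa, H2-Ab1, H2-Eb1 and H2-DMa, Kupffer cells held 4643 UMIs on chow and 1016 on the NASH diet, 12604 and 12876 CPM, a log2 ratio of 0.03 (-0.07 to 0.13). Without the mitochondrial limit the ratio was -0.20, and per 1000000 non-mitochondrial UMIs of those same cells it was 0.29. A class II UMI was found in 57 of 60 and 37 of 39 Kupffer cells. Single Kupffer cells ran from 0 to 52388 CPM on chow, with a median of 6947, and from 0 to 48354 CPM on the NASH diet, with a median of 8416, so the cells of the 2 diets overlapped over nearly the whole range. Thinned to 1000 UMIs per cell, a class II UMI remained in 89.1% of the 46 deep enough on chow (76.4 to 96.4) and in 88.0% of the 25 on the NASH diet (68.8 to 97.5), with 14 shallower cells left out in each library. The NASH diet Kupffer cells were the shallower ones, carried a median of 5 of the 13 markers against 12 on chow, and held the markers at 19884 CPM against 32100.

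**Figure D3:**
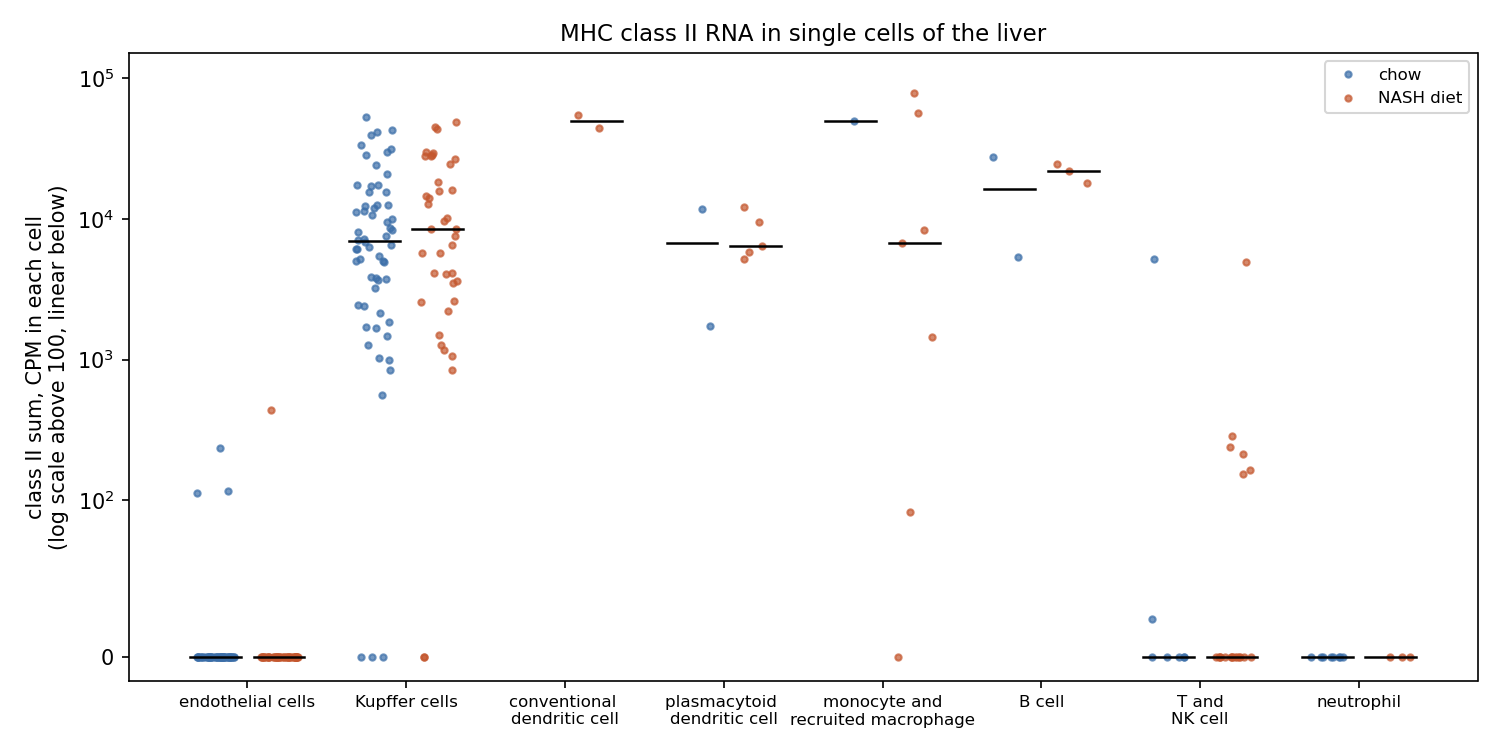
Class II sum of Cd74, H2-Aa, H2-Ab1, H2-Eb1 and H2-DMa in CPM in each cell (log scale above 100, linear below), by class or immune lineage, chow in blue and NASH diet in orange, black bars at medians. Kupffer cells of both diets spread from 0 to about the level of dendritic cells, all neutrophils stand at 0, and most endothelial and T and NK cells stand at 0.

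The parts of the Kupffer sum differed in direction. Cd74 stood at 5223 and 6210 CPM, a log2 ratio of 0.25 (0.10 to 0.39), and alternatives left it at 0.06 to 0.55. H2-Aa stood at 2696 and 1990 CPM, a log2 ratio of -0.44 (-0.69 to -0.19), and alternatives left it at -0.70 to -0.21. Cd74 thus made up 41.4% of class II UMIs on chow (40.0 to 42.9) and 48.2% on the NASH diet (45.1 to 51.4), and H2-Aa 21.4% (20.2 to 22.6) and 15.5% (13.3 to 17.8). H2-Ab1, the partner chain of H2-Aa, stood at 2424 and 2243 CPM, a log2 ratio of -0.11 (-0.35 to 0.12). H2-Eb1 stood at 1900 and 2167 CPM (0.19, -0.06 to 0.43) and the peptide editor H2-DMa at 361 and 266 CPM (-0.44, -1.18 to 0.23), and the intervals of all 3 held 0. Ciita had 5 UMIs in 4 chow Kupffer cells and 1 UMI in 1 NASH diet Kupffer cell, too few for a ratio.

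Class II RNA made up a smaller part of the UMIs of hepatocytes than of low-UMI barcodes. The 5 genes had 140 UMIs among 1991 chow hepatocytes and 77 among 1069 NASH diet hepatocytes, 2.73 and 3.39 CPM. Low-UMI barcodes held 66.3 and 182 CPM, from 95 UMIs among 1944 chow and 192 among 906 NASH diet barcodes. Hepatocytes are far deeper, so these CPM values do not compare class II UMIs per barcode with free RNA. Thinned to 1000 UMIs, 0.402% of chow hepatocytes (0.174 to 0.790) and 0.0935% of NASH diet hepatocytes (0.00237 to 0.520) held a class II UMI, against 0.858% and 2.45% of low-UMI barcodes, whose median depths were 652 and 1069 UMIs before those under 1000 were left out. These shares rest on 8 and 1 hepatocytes. At 2000 UMIs the order of the diets turned, with 0.603% on chow (12 cells) and 0.842% on the NASH diet (9 cells), and the intervals overlapped at both depths. Unthinned, the hepatocyte shares were 3.87% and 4.86%. H2-Eb1 had 9 and 16 UMIs in hepatocytes, 0.176 and 0.704 CPM, a log2 ratio of 2.0 (0.74 to 3.36). In low-UMI barcodes it stood at 10.5 and 41.7 CPM, higher on the NASH diet as well, and the part of free RNA in the hepatocyte value was not tested. Ciita had 1 UMI and 6 UMIs in hepatocytes.

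Endothelial cells held hardly any class II RNA. The 51 chow cells gave 4 UMIs in 3 cells and the 45 NASH diet cells 5 UMIs in 1 cell, 17.9 and 17.0 CPM, which is below the low-UMI barcodes. H2-Eb1, H2-DMa and Ciita had 0 UMIs in both libraries, which allows up to 13.4 CPM on chow and 10.2 CPM on the NASH diet by a floor of 3 UMIs. After thinning to 1000 UMIs, 1 of 38 chow cells (2.63%) and 0 of 44 NASH diet cells held a class II UMI. The count of 0 allows up to 6.82% of cells with a UMI at that depth by a floor of 3 cells, or 8.04% by the Clopper-Pearson bound, and 1 NASH diet cell did hold such UMIs before thinning.

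Other immune cells were a mixture, and most of their class II UMIs sat in a few cells. The class held 8179 and 11113 CPM of class II RNA, a log2 ratio of 0.44 (0.35 to 0.54). One chow cell, with markers of monocytes and recruited macrophages, held 914 of the 1184 chow UMIs (77.2%) and all 7 chow Ciita UMIs. Without the cell holding the most class II UMIs in each library, the log2 ratio was 1.96. A class II UMI was found in 9 of 23 chow cells and 34 of 52 NASH diet cells. The makeup of the class differed too, with 8 neutrophils among 23 cells on chow and 3 among 52 on the NASH diet, and its part in the ratio was not tested.

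Gene by gene, the same chow cell weighed on the other immune values. Cd74 stood at 3406 and 5145 CPM, a log2 ratio of 0.60 (0.45 to 0.74), and at 1.66 without the cell holding most of its UMIs in each library. H2-Ab1 stood at 1547 and 1968 CPM, a ratio of 0.35 (0.12 to 0.57), and H2-Eb1 at 1416 and 2026 CPM, a ratio of 0.52 (0.29 to 0.75). Without such a cell these were 2.67 and 2.52. H2-Aa stood at 1520 and 1762 CPM, a ratio of 0.21 (-0.01 to 0.45), or 2.32 without it. H2-DMa stood at 290.1 and 212 CPM, a ratio of -0.45 (-1.03 to 0.14), and turned to 0.21 without it. Ciita had 7 UMIs in 1 chow cell and 17 UMIs in 5 NASH diet cells.

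Within those lineages, the 2 NASH diet cells with dendritic cell markers held 48994 CPM of class II RNA and 9 of the 17 Ciita UMIs of the class. By the list with the most markers detected in a cell, 0 chow cells were assigned to this lineage. Chow other immune cells did hold 22 UMIs of these dendritic cell markers, with 5 of the 10 at 0 UMIs. An absence of dendritic cells on chow is therefore not shown. B cells held 11889 CPM in 2 chow cells and 21454 CPM in 3 NASH diet cells, and plasmacytoid dendritic cells 5865 CPM in 2 and 7955 CPM in 5. Monocytes and recruited macrophages held 49063 CPM in 1 chow cell and 20952 CPM in 7 NASH diet cells, a log2 ratio of -1.23. Single NASH diet cells of this lineage ran from 0 to 77654 CPM, and 1 of them held 964 of the 1145 UMIs. With 1 chow cell, no direction between the diets can be read. Neutrophils had 0 class II UMIs in 8 and 3 cells, which allows up to 132 and 246 CPM. T and NK cells stood at 806 and 1031 CPM, but 1 cell held 98.4% of these UMIs on chow and 1 cell 92.1% on the NASH diet. Cells left without a lineage held 7 class II UMIs on chow and 221 on the NASH diet, 2702 and 15694 CPM. H2-DMa was relatively prominent in plasmacytoid dendritic cells, with 14 of 81 class II UMIs on chow and 16 of 239 on the NASH diet, against 133 of 4643 and 21 of 1016 in Kupffer cells.

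Members past a log2 ratio of 1 were counted beside all features of the same cells. In hepatocytes 8 of 10 members had at least 10 UMIs over both libraries, and 1 of them (H2-Eb1) was past a log2 ratio of 1, against 11.5% of 12290 features in either direction (6.62% higher, 4.87% lower). In endothelial cells 4 members passed that filter and 0 were past 1, against 20% of 7008 features (11.6% higher, 8.4% lower). In Kupffer cells 9 passed and 0 were past 1, against 27.3% of 5724 features (8.68% higher, 18.6% lower), and in other immune cells 10 passed and 1 (Tap1, which was under 1 without the mitochondrial limit) was past 1, against 24.7% of 5303 features (14.1% higher, 10.7% lower). The 1 of 8 in hepatocytes is near the share over all features. Among features with at least 20 UMIs, 9.72%, 14.6%, 23.1% and 17.4% were past 1 in the 4 classes. Members were not matched to features of like UMI counts. A gene could also pass the filter through 1 library alone. H2-Eb1 in hepatocytes (9 and 16 UMIs) and Tap1 in other immune cells (8 and 43 UMIs) passed through the NASH diet library. Median log2 ratios of the members that passed were 0.02, -0.18, -0.11 and 0.21, beside 0.13, -0.06, -0.19 and -0.02 over all features. Members that missed the filter were Ciita and H2-DMa in hepatocytes, Ciita in Kupffer cells, and Cd74, H2-Aa, H2-Ab1, H2-Eb1, H2-DMa and Ciita in endothelial cells.

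**Figure D4:**
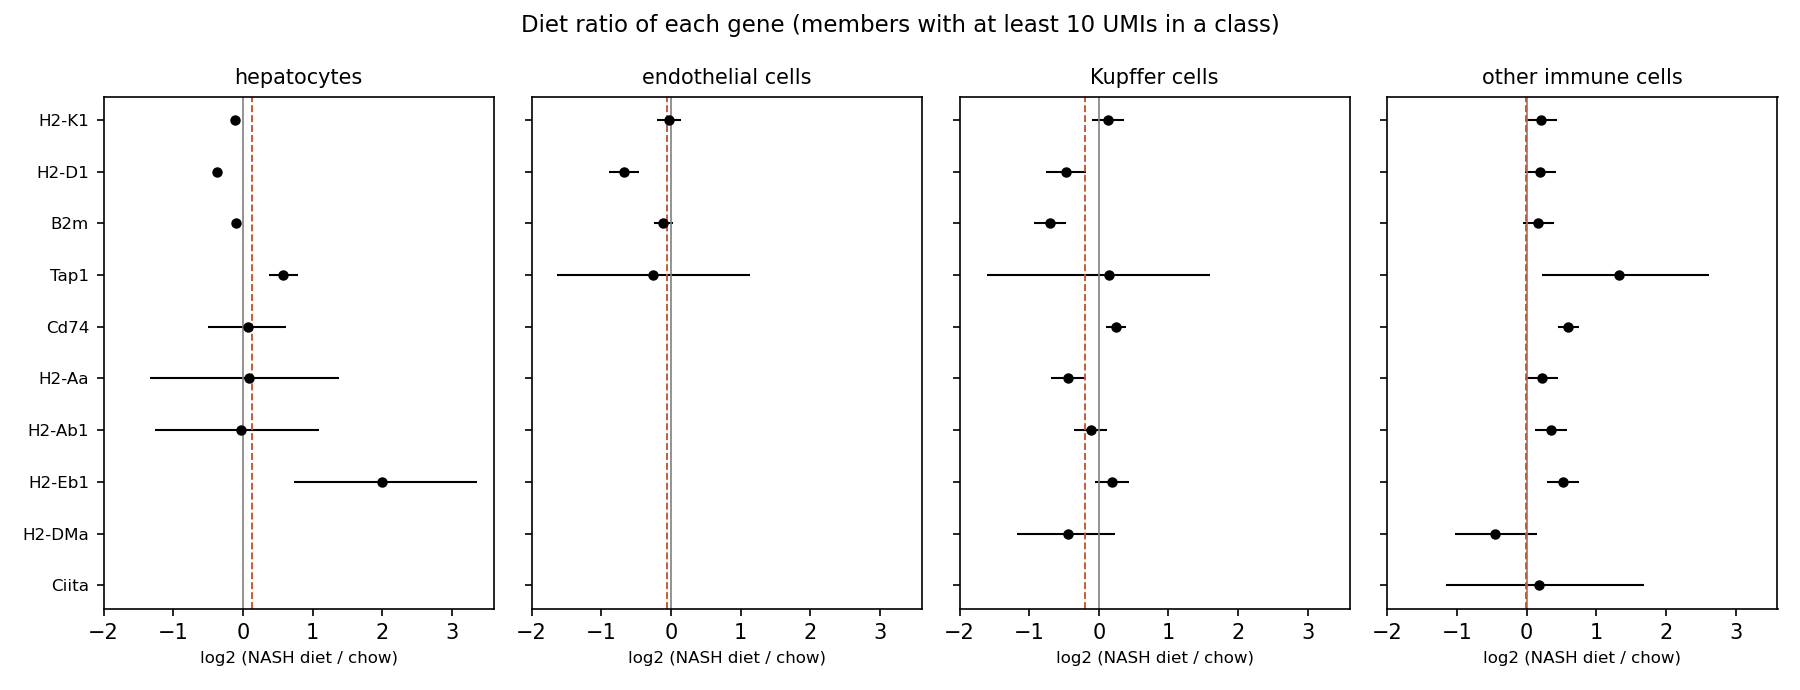
Log2 ratio of NASH diet over chow for each gene with at least 10 UMIs in a class, with exact 95% intervals; the grey line marks 0 and the dashed orange line the median over all features of that class. H2-D1 lies left of 0 in hepatocytes, endothelial cells and Kupffer cells, B2m lies farthest left in Kupffer cells at -0.70, and Tap1 lies right of 0 in hepatocytes at 0.58 and in other immune cells at 1.32.

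Other genes of class I loading had a median below that over all features in hepatocytes, endothelial cells and Kupffer cells and above it in other immune cells. Of 19 such genes, all 19 passed the UMI filter in hepatocytes and 0 were past a log2 ratio of 1, with a median of -0.25. The lowest, named here after their values were seen, were the chaperones of the peptide loading complex Calr, at -0.98 (-1.01 to -0.96), and Pdia3, at -0.91 (-0.96 to -0.87), both also general helpers of protein folding. Tap2, which pairs with Tap1, also named after its values were seen, was at -0.68 (-0.96 to -0.40), from 498 and 138 UMIs, the opposite direction to Tap1 in the same cells. In endothelial cells 2 of 19 (Nlrc5, the class I coactivator, and H2-M3, a nonclassical class I gene) were lower by at least 1 with intervals that held 0, and the median was -0.39. In Kupffer cells 2 of 17 were lower, Erap1 with 19 and 2 UMIs and Psme2, a subunit of the proteasome activator, with 83 and 6 UMIs and a log2 ratio of -1.57 (-3.05 to -0.38), and the median was -0.34. In other immune cells 2 of 19 (Erap1 and Nlrc5) were higher by at least 1 with intervals that held 0, and the median was 0.15. Of all features, 8.4% in endothelial and 18.6% in Kupffer cells were lower by at least 1, and 14.1% in other immune cells were higher. In hepatocytes 11.5% of features were past 1 in either direction.

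Genes of class II loading and of the factors that assemble with Ciita were read less often. Of 18 listed, 14 were among the features, and 5 passed the filter in hepatocytes with 0 past 1. Lgmn, a lysosomal protease named after its values were seen, was at -0.86 (-1.07 to -0.65) there. The medians of the genes that passed were -0.58, -0.54, -0.26 and -0.05 in hepatocytes, endothelial, Kupffer and other immune cells. Medians over all features were 0.13, -0.06, -0.19 and -0.02. In Kupffer cells 6 passed and 1 (Rfxap, a subunit of RFX) was lower by at least 1, from 10 and 1 UMIs. Ctss, the cathepsin that trims Cd74, likewise named, had 986 and 178 UMIs in Kupffer cells, a log2 ratio of -0.25 (-0.49 to -0.02). In endothelial cells 2 passed with 0 past 1, and in other immune cells 5 passed with 1 (H2-Oa, which restrains the peptide editor) higher, from 3 and 19 UMIs and with an interval that held 0. Of all features, 18.6% in Kupffer cells were lower by at least 1 and 14.1% in other immune cells were higher. Those past 1 in either direction were 11.5% in hepatocytes and 20% in endothelial cells.

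Among 11 genes of interferon gamma signalling, the pathway best known for raising both MHC classes, Cxcl9 was lower on the NASH diet in all 4 classes. This chemokine gene had 969 and 148 UMIs in hepatocytes, 18.9 and 6.51 CPM, a log2 ratio of -1.54 (-1.80 to -1.29). In endothelial cells it had 35 and 21 UMIs, a log2 ratio of -1.13 (-1.98 to -0.31). Kupffer cells had 85 and 0 UMIs, 6.07-fold lower with the 0 set to a floor of 3 UMIs over the class. The upper end of the log2 interval was -2.27. Other immune cells had 21 and 0 UMIs, 15.04-fold lower on that floor, with an upper end of -3.48. The counts past 1 were 2 lower of 10 genes in hepatocytes (Cxcl9 and Socs1, the latter with 42 and 9 UMIs and an interval that held 0), 3 lower of 10 in endothelial cells (Jak2 at -2.27, Ifngr2 at -1.60 and Cxcl9), and 2 lower of 10 in Kupffer cells (Irf2 at -2.05 and Cxcl9). In other immune cells 5 of 11 were higher (Ifng, Socs1, Ifngr2, Jak2 and Gbp2, the last 2 with intervals that held 0) and 1 lower. There Ifng, Socs1 and Ifngr2 met the filter of 10 UMIs only through the NASH diet library. Cxcl9 met it only through the chow library there and in Kupffer cells. These counts are a description and not a result about the pathway. Of all features, 4.87%, 8.4% and 18.6% were lower by at least 1 in hepatocytes, endothelial cells and Kupffer cells. In other immune cells 14.1% of features were higher and 10.7% lower. Median log2 ratios of the listed genes that passed were -0.09, -0.91, -0.59 and 0.48, with genes at 0 UMIs taken at the floor. Medians over all features were 0.13, -0.06, -0.19 and -0.02. In other immune cells Ifng itself had 0 and 16 UMIs and Socs1 0 and 13, 2.48-fold and 2.02-fold higher on the same floor. Their log2 intervals began at 0.84 and 0.505. Ifngr2 had 1 and 16 UMIs, a log2 ratio of 2.90 (0.21 to 8.29).

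The genes whose levels followed each sum most closely were ranked by Pearson's r of log2 (CPM + 5) over 11 groups of a class and library with at least 20 cells. The groups share libraries and differ in depth, and 1 of them, the 20 T and NK cells of the NASH diet, is also counted within the other immune cells of that library, so r is a description. For the class I sum the first 5 were Itpr2 (0.97), Tor1aip1 (0.97), Tapbp (0.96), Atxn2l (0.96) and Tmem168 (0.95), of which Tapbp encodes tapasin, the class I loading factor. For the class II sum they were Lgals3 (0.97), Spi1 (0.96), Ifi27l2a (0.96), Myo1f (0.96) and Ncf4 (0.96), of which Spi1 encodes the myeloid transcription factor PU.1.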

How the data were processed

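Raw UMI counts per gene and barcode were deposited by the authors for each library, and per the file headers they were written by Cell Ranger 3.0.2, while the submitters' processing notes name Cell Ranger 3.1.0, Seurat and mm10. For annotation and aligner settings the sources used here give nothing. Libraries held 71635757 and 39440182 UMIs (chow first). A merged count matrix, also deposited, served as an alternative, and 0 columns were left unmatched to a sample.

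A barcode entered a class with at least 3 markers of that class detected and at least 0.1% of its UMIs from them. Hepatocytes passed no such gate and had at least 5000 UMIs and at least 8 of 12 hepatocyte markers, and low-UMI barcodes had under 2000 UMIs and passed none. Barcodes passing gates of unlike lineages (30 and 26) were left out as likely doublets, and Scrublet in scanpy 1.11.5, whose own threshold called 0, was used by rank as an alternative (433 and 277 barcodes marked). Gate thresholds were set after the marker distributions were seen, without the members. The 10 members and the gene lists were chosen with earlier results of these data known.

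UMIs were summed per class and library, with Python 3.11.15, numpy 2.4.6 and scipy 1.17.1. Ratios carry exact conditional binomial intervals, a count of 0 was set to a floor of 3, and the method was tested on simulated data. Named genes are all members, and from the other lists those with at least 10 UMIs, a log2 ratio of at least 1 in size and an interval without 0, at most 6 per class. Calr, Pdia3, Tap2, Lgmn and Ctss, and genes named because they make up a small count past 1, fall outside that rule and were chosen after their values were seen.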

Additional observations from a re-analysis of the deposited data

Results flagged for a closer look

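The sum of the class I genes H2-K1, H2-D1, B2m and Tap1 differed in direction between cell classes. Its log2 ratio of NASH diet over chow was 0.21 in other immune cells, against -0.13 in hepatocytes, -0.20 in endothelial cells and -0.36 in Kupffer cells. Without the mitochondrial limit the value in other immune cells was 0.018, and as a mean over cells that in endothelial cells was 0.018. Each value rests on 1 library per diet, and the difference between classes was not tested.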

How the results depend on the processing

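No paired analysis was possible because each diet had 1 library. All ratios in this paragraph are log2 of NASH diet over chow. The class I sum in hepatocytes was -0.16 without the mitochondrial limit, -0.36 at a limit of 20%, -0.17 as a mean over cells, -0.087 in the merged matrix, -0.067 per 1000000 non-mitochondrial UMIs and -0.040 with that scale and no limit (a pair of choices added after seeing the data), and the class II sum there was 0.97 at 20%. In endothelial cells class I was -0.34 without the limit, -0.10 at 20%, 0.018 as a mean over cells and -0.10 per 1000000 non-mitochondrial UMIs. In Kupffer cells class I was -0.84, -0.18 and -0.22 without the limit, at 20% and per 1000000 non-mitochondrial UMIs. Class II there was -0.20 without the limit, 0.18 with 1 more marker needed, 0.25 as a mean over cells, 0.17 per 1000000 non-mitochondrial UMIs and 0.29 with that scale and no limit. In other immune cells class I was 0.018 without the limit and 0.024 without the cell holding most of these UMIs, and class II was 1.14 as a mean over cells, 1.96 without that cell and 0.59 per 1000000 non-mitochondrial UMIs with no limit. Features past a log2 ratio of 1 numbered 3457, 3763, 5493 and 4905 in the 4 classes (hepatocytes, endothelial, Kupffer and other immune) with no UMI filter, and 665, 788 and 513 in the last 3 at 20 UMIs. Shares of cells with a class II UMI in chow and NASH diet hepatocytes were 0.402% and 0.0935% at 1000 UMIs per cell, 0.603% and 0.842% at 2000, where their order turned, and 3.87% and 4.86% unthinned. At 2000 UMIs they were 0% in chow endothelial cells and 97.4% and 100% in Kupffer cells. Of 310 ratios of single members under an alternative, 265 lay within the original interval and 29 had another sign, and 0 of those past 1 turned. The cause of these differences was not tested. Small counts limit the ratios of Ciita in all 4 classes, of Tap1 in endothelial and Kupffer cells and of class II in endothelial cells, and the small number of cells limits the lineages.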

Other observations

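Among barcodes counted as hepatocytes, 31 of 1991 on chow and 22 of 1069 on the NASH diet had 0 H2-K1 UMIs, a group chosen after its values were seen. At their cells' depths (medians of 7502 and 8574.5 UMIs), the level of H2-K1 over all hepatocytes of the library corresponds to a median of 12.9 and 13.5 UMIs per cell. These barcodes held B2m at 743 and 979 CPM against 2353 and 2204 CPM in the others, and H2-D1 at 90.4 and 91.5 CPM against 389 and 300.4 CPM. Malat1, a nuclear RNA, stood at 3.35 and 27.4 CPM against 1010.2 and 1352 CPM, Alb at 2477 and 5374 CPM against 25464 and 37117 CPM, and mitochondrial UMIs at medians of 1.5% and 4.25% against 18.5% and 23.4%.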
